A study of Arabidopsis thaliana with 8 samples.

Results

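The 10 genes described here code for extensins, the repeat-rich hydroxyproline proteins of the plant cell wall, and were studied in root and shoot tissue of Arabidopsis thaliana, wild-type accession Col-0. They are 10 of the 33199 rows of the deposited table, taken by gene identifier, and were selected on their FPKM values in these same libraries, which stood high in root and low in shoot. The comparison of root with shoot is therefore given for them as a description, without a test. RNA was sequenced from 4 root samples and 4 shoot samples, which differ in the organ alone as far as the labels say. No source used here gives the age of the plants or their medium, and nothing in the labels says that the 4 samples of an organ came from separate plants or cultures, so the spread between them may be technical.

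Extensins are secreted rods built from short repeats in which a serine is followed by a run of prolines. The prolines are hydroxylated in the secretory pathway, chains of arabinose are added to the hydroxyprolines and a galactose to the serine, and peroxidases in the wall join tyrosines of neighbouring molecules into a network. In Arabidopsis roots, extensins are best known for the growth of root hairs, the tubular outgrowths of epidermal cells.

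The repeats can be read directly in the coding sequence. Each of the 10 genes has its longest annotated coding sequence in 1 exon, of 1290 bases in EXT12 to 3075 bases in AT3G28550. Of these, 4 stretches are printed here because they show the repeat at its most regular in the most abundant member (EXT3), in a long member (AT3G28550), in a member with identical neighbouring units (EXT6) and in a member of a tandem pair (AT4G08400). Each is the coding strand, 5′ to 3′, of 2 neighbouring units, read from the RefSeq TAIR10.1 genome, in which all 10 genes have the start and end given in the table. Capitals mark the codons for tyrosine, the residue that is cross-linked.

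EXT3, chr1:7453846-7454013, minus strand: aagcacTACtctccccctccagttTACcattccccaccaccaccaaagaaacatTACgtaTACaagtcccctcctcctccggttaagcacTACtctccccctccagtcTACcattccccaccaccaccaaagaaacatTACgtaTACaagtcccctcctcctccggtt
AT3G28550, chr3:10701221-10701370, minus strand: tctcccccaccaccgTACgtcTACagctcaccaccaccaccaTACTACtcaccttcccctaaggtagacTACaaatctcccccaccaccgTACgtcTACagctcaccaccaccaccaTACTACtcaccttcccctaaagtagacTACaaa
EXT6, chr2:10623002-10623151, plus strand: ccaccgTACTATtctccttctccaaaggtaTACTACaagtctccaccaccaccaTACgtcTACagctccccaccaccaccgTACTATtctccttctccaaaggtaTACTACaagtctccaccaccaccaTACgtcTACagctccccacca
AT4G08400, chr4:5324265-5324414, minus strand: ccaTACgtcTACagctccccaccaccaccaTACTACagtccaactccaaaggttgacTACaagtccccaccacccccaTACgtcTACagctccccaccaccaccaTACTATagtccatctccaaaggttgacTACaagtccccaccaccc

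The EXT3 unit is 84 bases long, and its neighbouring copies agree at 83 of 84 bases. The other 3 units are 75 bases long, and their neighbouring copies agree at 74 of 75 bases in AT3G28550, 75 of 75 in EXT6 and 73 of 75 in AT4G08400. Proline codons made up 35.4% to 40.3% of the codons of the 10 genes, and tyrosine codons 13.9% to 21.8%. A serine codon followed by 4 proline codons occurred 22 times in EXT12 and 70 times in AT3G28550, the lowest and highest counts among the 10.

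EXT3 stood apart from the other 9 in its codons. Histidine made up 10.2% of its codons, against 0.354% to 1.16% in the other 9, and lysine 12.5%, against 6.29% to 8.20%. It had the lowest share of tyrosine, 13.9% against 17.2% to 21.8%, and of serine, 11.1% against 15.6% to 19.2%. EXT3, also called RSH, is required for the correct placing of new cell walls in the embryo.

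**Figure D1:**
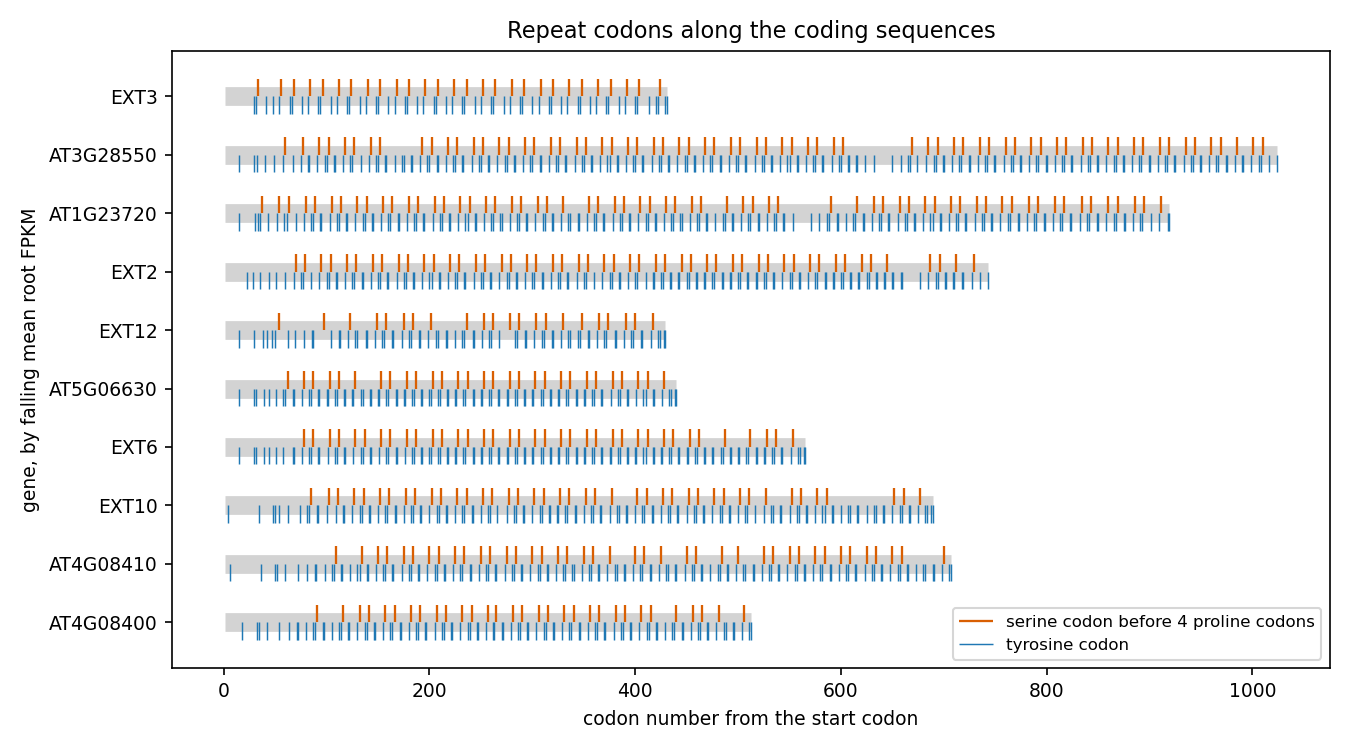
Codon number from the start codon (x axis) for each of the 10 extensin genes, ordered from top to bottom by falling mean root FPKM, with grey bars for the longest annotated coding sequence, upper orange ticks for a serine codon before 4 proline codons and lower blue ticks for tyrosine codons. Both kinds of tick recur along nearly the whole of each gene, and the orange ticks number 22 in EXT12 and 70 in AT3G28550.

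Values are in FPKM, reads scaled to the length of the gene and to a scaled library size, as deposited. Values after ± are SDs over 4 libraries. All 10 members were detected in all 4 root libraries. To be tested a gene needed 0.5 FPKM or more in 4 or more of the 8 libraries, which 9 of the 10 members met through the root libraries alone and EXT3 in all 8. In shoot, 7 of the 10 had 0 reads in the 4 libraries together, 2 had 6 reads each, and EXT3 had 848. In a mixture of cells such as an organ, fewer cells of a type and less RNA per cell cannot be told apart.

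EXT3 was the most abundant member and had the fifth highest mean of all rows of the table in root. It had 1081, 1233, 1478 and 1708 FPKM in root libraries 1 to 4, against 17.3, 8.16, 21.5 and 9.85 FPKM in shoot libraries 1 to 4. The organs did not overlap, and shoot libraries 1 and 3 were the higher pair in shoot. The means were 1375 ± 276 FPKM in root and 14.2 ± 6.28 FPKM in shoot (SD, n = 4 each), a ratio of 96.8 and a log2 fold change of 6.63, root over shoot, on the log2(FPKM + 0.5) scale. EXT3 lies at chr1:7453245-7455009 on the minus strand.

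AT3G28550 and AT1G23720 followed at about the same level. AT3G28550 (chr3:10700562-10704018, minus strand) had 119.7, 104.0, 132.1 and 158.8 FPKM in root libraries 1 to 4, against 6 reads over the 4 shoot libraries, 2 each in libraries 1 to 3. AT1G23720 (chr1:8388297-8391623, plus strand) had 131.3, 96.7, 128.2 and 146.6 FPKM in root libraries 1 to 4, against 0 reads in shoot. Their root libraries overlapped, with means of 128.6 ± 23.2 and 125.7 ± 21.0 FPKM (SD, n = 4 each). Against 3 reads over the 4 shoot libraries, the floor used wherever shoot had 0 reads, AT1G23720 was at least 4842-fold higher in root. For AT3G28550 the ratio of the means, root over shoot, was 2617 from those 6 shoot reads. On the log2(FPKM + 0.5) scale, which understates such folds, its log2 fold change was 7.86. Both code for extensins of the long kind, with 919 codons in AT1G23720 and 1024 in AT3G28550.

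EXT2 (chr3:20206128-20208783, plus strand) had 42.3, 52.3, 66.8 and 78.8 FPKM in root libraries 1 to 4, against 0 reads in shoot. Its root mean was 60.04 ± 16.03 FPKM, at least 1847-fold higher than shoot. EXT12 (chr4:7783791-7785366, plus strand) had 25.9, 39.3, 40.8 and 55.4 FPKM in root libraries 1 to 4, against 6 reads over shoot libraries 1 and 2, a ratio of the means of 358. EXT6 (chr2:10622396-10624309, plus strand) had 17.4, 25.2, 27.0 and 38.2 FPKM in root, against 0 reads in shoot. All 3 were lowest in root library 1 and highest in root library 4. EXT6, EXT10 and EXT12 are known from mutants with shortened root hairs. EXT12 averaged 40.3 ± 12.1 FPKM and EXT6 27.0 ± 8.58 FPKM in root (SD, n = 4 each), and EXT6 was at least 598-fold higher in root.

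AT5G06630 (chr5:2036312-2037855) and EXT10 (chr5:2039598-2041928) are neighbours on the minus strand, 1742 bases apart with no gene between them. AT5G06630 had 19.7, 26.1, 31.1 and 34.4 FPKM in root libraries 1 to 4, against 0 reads in shoot. EXT10 had 8.04, 13.6, 12.1 and 16.7 FPKM in root libraries 1 to 4, against 0 reads in shoot. The 2 neighbours did not overlap in root, at 27.8 ± 6.40 FPKM for AT5G06630 and 12.6 ± 3.58 FPKM for EXT10 (SD, n = 4 each). AT5G06630 was at least 498-fold higher in root, and EXT10 at least 340-fold.

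AT4G08410 (chr4:5338819-5341209) and AT4G08400 (chr4:5323606-5325374), both on the minus strand, lie 13444 bases apart with 1 gene between them, and were the lowest of the 10. AT4G08410 had 5.51, 8.59, 10.6 and 13.1 FPKM and AT4G08400 had 5.28, 8.52, 9.47 and 12.8 FPKM in root libraries 1 to 4, against 0 reads in shoot for both. Their values are uncertain one by one, because 27.7% of the 150-base windows of AT4G08410 and 38.3% of those of AT4G08400 were also found in the other gene, and no source used here says how the authors counted such reads. Their sum was 10.8, 17.1, 20.045 and 25.9 FPKM in root libraries 1 to 4, against 0 in each shoot library. If such shared reads were left out, the sum is too low as well. The place of both genes as the lowest is then uncertain. Taken singly, AT4G08410 was at least 262-fold and AT4G08400 at least 185-fold higher in root. No 150-base window of the other 8 members was found in another gene, with only exact matches sought. Windows found again within the same gene made up 3.04% in AT3G28550, 4.17% in EXT6 and 6.02% in AT5G06630. How reads from those windows were counted is unknown too.

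**Figure D2:**
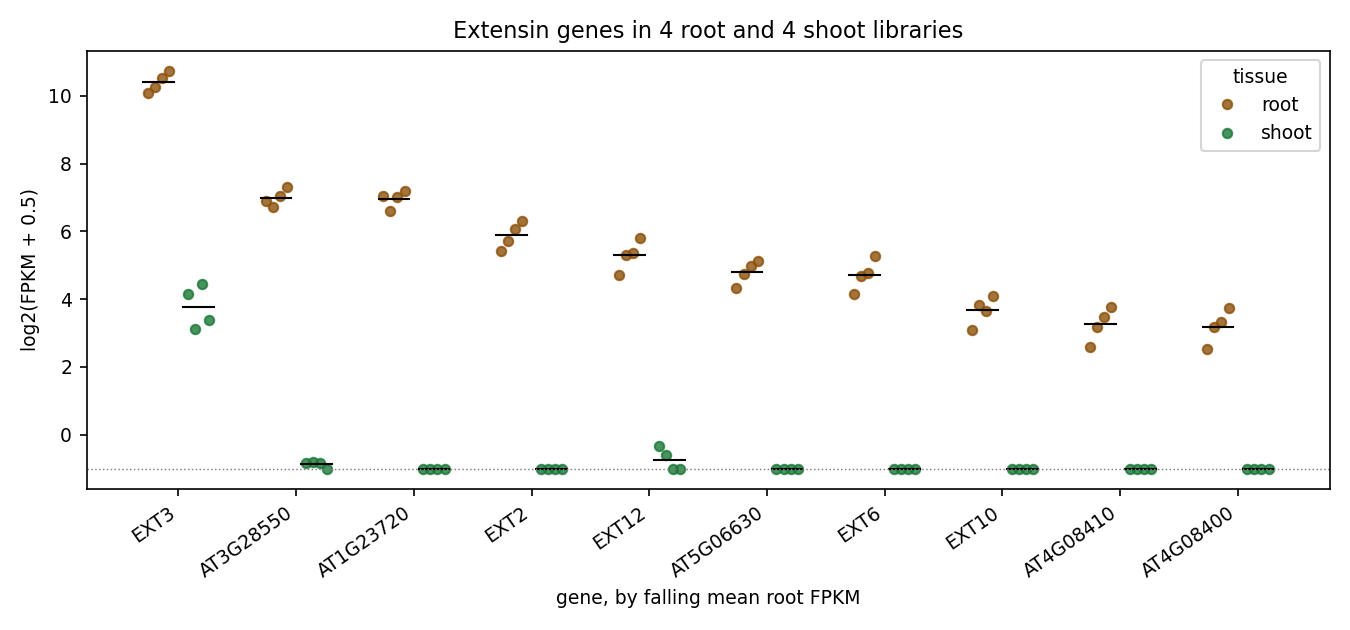
Level of each of the 10 extensin genes as log2(FPKM + 0.5) in the 4 root libraries (brown, left of each pair) and the 4 shoot libraries (green, right), with a point per library, a black line at the mean and a dotted line at 0 FPKM. All root points lie above all shoot points of the same gene, and 7 of the 10 genes lie on the dotted line in shoot.

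In the order of root levels, 3 steps left no overlap between the root libraries of the 2 neighbouring genes. The lowest root library of EXT3 lay above the highest of AT3G28550, the lowest of AT1G23720 above the highest of EXT2, and the lowest of EXT6 above the highest of EXT10, at 17.4 against 16.7 FPKM. The other 6 neighbouring pairs overlapped in range. Compared within each root library, the gene with the higher mean was above in 4 of 4 libraries in 4 of these pairs (EXT2 over EXT12, EXT12 over AT5G06630, EXT10 over AT4G08410 and AT4G08410 over AT4G08400) and in 3 of 4 in the other 2. The 2 pairs with AT4G08410 rest on values that are uncertain one by one, because of the windows it shares with AT4G08400. Levels were compared per kilobase of gene length.

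Over all genes tested, 69.6% were called by limma at an adjusted p under 0.05, 37.6% with root above shoot and 32.0% with shoot above root. Every root library lay above every shoot library in 34.7% of them, and every shoot library above every root library in 30.1%. Scaled by library totals, 59.8% were called with root above shoot and 19.7% with shoot above root. A log2 fold change of at least 4, root over shoot, was reached by 3.04%. All 10 members had separate organs and a log2 fold change over 4, which is what they were chosen for. Their log2 fold changes had a median of 5.92, against 0.07 over all genes tested, and the pseudocount sets much of that value: the median was 7.90 with a pseudocount of 0.1 and 5.00 with 1. It was 8.22 with the 7 members at 0 reads set to their bounds.

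Together the 10 genes took 0.425 ± 0.0725% of the reads in root and 0.00200 ± 0.00096% in shoot (SD, n = 4 each). Their summed level was 1456, 1607, 1936 and 2263 FPKM in root libraries 1 to 4, against 17.7, 8.39, 21.6 and 9.85 FPKM in shoot libraries 1 to 4. EXT3 made up 74.2% to 76.7% of the sum in root. Without EXT3, the other 9 summed to 440.6 ± 85.7 FPKM in root and 0.162 ± 0.164 FPKM in shoot (SD, n = 4 each). The shoot value rests on 12 reads.

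The root libraries differed among themselves in the same direction for most members. Root library 4 was the highest for all 10. Root library 1 was the lowest for 8 of the 10, and root library 2 for AT3G28550 and AT1G23720. Of all genes tested, 14.5% were lowest in root library 1 and highest in root library 4, the pattern of those 8. As a share of each gene's own root mean, the median member stood at 67.5%, 92.2%, 103.9% and 131.7% in root libraries 1 to 4, whereas the median of all genes tested stood at 99.0%, 99.2%, 99.6% and 100.8%.

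Markers of other tissues moved across the root libraries too. The 8 green tissue markers, genes of photosynthesis, were highest in root library 1, with a median share of 182.7%, 119.3%, 43.8% and 51.3% of their root mean in libraries 1 to 4. The endodermis markers stood at 81.2%, 88.3%, 103.1% and 131.2%, and the root hair markers at 75.2%, 117.2%, 95.7% and 123.0%. The part of these shifts in the members' spread was not tested. Green tissue markers summed to 83.3 to 349.2 FPKM in root and to 52988 to 66758 FPKM in shoot. Leaving out root libraries 1 and 2 moved the log2 difference of the members' summed level, root minus shoot, to 7.24, against 7.01 with all libraries.

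**Figure D3:**
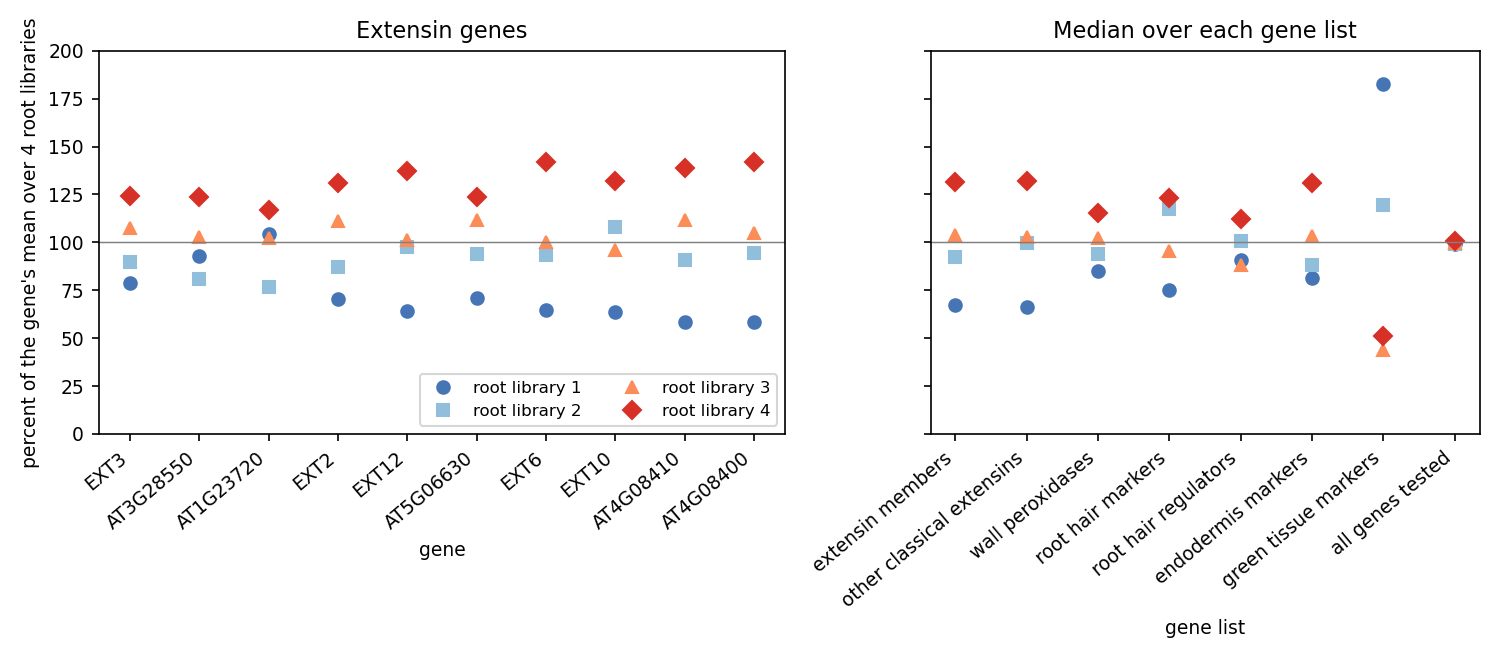
Level in each of root libraries 1 to 4 as a percent of the gene's mean over the 4 root libraries, for each extensin gene (left) and as the median over each gene list (right), with a symbol per library. The median member stood at 67.5% in library 1 and 131.7% in library 4, and the median green tissue marker at 182.7% and 51.3%.

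Markers were set beside the labels of the organs. The marker lists were chosen with earlier results of these data known, so they are no independent check of the labels. All 8 green tissue markers were higher in shoot, all 8 root hair markers were higher in root, and all 7 endodermis markers tested were higher in root, by limma at an adjusted p under 0.05. Of these, 6 root hair markers and 3 endodermis markers entered the test through the root libraries alone, with no shoot library at 0.5 FPKM. CASP2, MYB36 and PER64 had fewer than 4 shoot libraries at that level, so they also needed root to be tested. ESB1, the listed endodermis marker that was not tested, was low in both organs. It averaged 0.310 ± 0.158 FPKM in root and 0.195 ± 0.0884 FPKM in shoot (SD, n = 4 each). Among the root hair markers, EXPA7, EXPA18, COBL9, PRP1 and MRH6 had 0 reads in shoot. The root hair regulators were called higher in root in 7 of 7 tested, of which RHD6, RSL1, RSL2, RSL4 and LRL3 entered the test through the root libraries alone. Among all genes tested, 37.6% were called higher in root and 32.0% higher in shoot. LRL3, a transcription factor of root hair growth, averaged 20.9 ± 4.46 FPKM in root and 0 reads in shoot (SD, n = 4 each), at least 319.9-fold higher in root (adjusted p = 6.32e-10). LRL1, a relative with the highest level of the list, averaged 37.8 ± 6.72 FPKM in root and 3.83 ± 0.979 FPKM in shoot (log2 fold change 3.16, SE 0.18, adjusted p = 4.48e-08).

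Of 8 classical extensins beyond the 10 in the table, 5 were tested and 5 were called higher in root, with a median log2 fold change of 5.43. The share called higher in root over all genes tested was 37.6%. EXT13, AT3G54580 and AT1G26240 reached the filter through the root libraries alone, so they could be called in that direction only. EXT4 and AT2G43150 had shoot libraries above the filter too. AT4G08370 and AT4G08380 were listed at 0 in all 8 libraries, and AT1G26250, at 0.253 ± 0.133 FPKM in root and 0 reads in shoot (SD, n = 4 each), was too low to be tested. AT2G43150 averaged 923.6 ± 248.9 FPKM in root and 20.4 ± 2.52 FPKM in shoot (SD, n = 4 each), a log2 fold change of 5.43 (SE 0.19, adjusted p = 1.34e-09), the level in root nearest to that of EXT3. AT3G54580, which starts 2208 bases from EXT2 and runs the other way, averaged 103.7 ± 28.2 FPKM in root and had 0 reads in shoot, at least 4018-fold higher (adjusted p = 1.34e-10).

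EXT4 had the highest shoot level of all the extensins named here. It averaged 521.8 ± 46.2 FPKM in root and 169.4 ± 76.9 FPKM in shoot (SD, n = 4 each), a log2 fold change of 1.77 (SE 0.34, adjusted p = 7.87e-04). In shoot libraries 1 to 4 it had 224.7, 157.8, 230.0 and 65.2 FPKM, so libraries 1 and 3 were the higher pair, as for EXT3. EXT13 averaged 55.7 ± 15.2 FPKM in root and had 0 reads in shoot, and AT1G26240 averaged 1.29 ± 0.375 FPKM in root and had 0 reads in shoot (SD, n = 4 each). Their adjusted p values were 4.05e-10 for EXT13 and 7.79e-06 for AT1G26240, for genes that entered the test through root. As a share of their root mean, the other classical extensins stood at 66.0%, 99.5%, 103.0% and 131.9% in root libraries 1 to 4.

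The leucine-rich repeat extensins, wall proteins that join a leucine-rich repeat domain to an extensin tail, split evenly. Of 9 tested of 11 in the table, 4 had a higher level in root, 4 had a higher level in shoot and 1 was not called, with a median log2 fold change of −0.13. The shares over all genes tested were 37.6% higher in root and 32.0% higher in shoot. LRX1 and LRX6 entered the test through the root libraries alone. LRX6 averaged 30.7 ± 6.92 FPKM in root and 0.163 ± 0.139 FPKM in shoot (log2 fold change 5.55, SE 0.21, adjusted p = 2.37e-09). LRX4, the most abundant, averaged 63.8 ± 4.65 FPKM in root and 35.8 ± 2.19 FPKM in shoot (0.82, SE 0.08, adjusted p = 6.81e-06). PEX3, named for pollen, averaged 17.1 ± 0.488 FPKM in root and 69.9 ± 12.7 FPKM in shoot (−1.98, SE 0.13, adjusted p = 1.74e-07).

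Receptor kinases with an extensin-like outer domain, the PERK family, also went both ways. Of 8 tested of 14 in the table, 3 were called up in root, 2 up in shoot and 3 were not called, with a median log2 fold change of 0.29. These counts lie near the shares over all genes tested, 37.6% up in root and 32.0% up in shoot. PERK12 entered the test through the root libraries alone. PERK13 also needed its root libraries to be tested, and PERK15 its shoot libraries. In each, the other organ had fewer than 4 libraries at 0.5 FPKM. PERK13 averaged 8.96 ± 0.910 FPKM in root and 0.633 ± 0.225 FPKM in shoot (log2 fold change 3.08, SE 0.17, adjusted p = 4.04e-08). PERK15 averaged 0.619 ± 0.262 FPKM in root and 8.79 ± 1.52 FPKM in shoot (−3.07, SE 0.20, adjusted p = 1.58e-07). PERK1 averaged 38.0 ± 2.04 FPKM in root and 39.4 ± 3.30 FPKM in shoot (−0.05, SE 0.09, adjusted p = 0.623). Scaled by library totals, which moves the median of all genes tested to 0.58, PERK1 was called higher in root instead, with a log2 fold change of 0.50 (adjusted p = 0.00107), and 6 of the family were higher in root.

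Enzymes that modify extensins were mixed. Of 10 prolyl 4-hydroxylases tested of 13, which hydroxylate the prolines, 4 rose in root, 1 was higher in shoot and 5 were not called, against 7 higher in root when scaled by library totals. Among all genes tested, 37.6% were higher in root and 32.0% in shoot, against 59.8% and 19.7% when scaled by library totals. P4H5, the most abundant, averaged 105.5 ± 10.2 FPKM in root and 41.6 ± 5.60 FPKM in shoot (log2 fold change 1.34, SE 0.11, adjusted p = 1.45e-06). P4H2 averaged 53.8 ± 8.42 FPKM in root and 14.8 ± 1.30 FPKM in shoot (1.82, SE 0.12, adjusted p = 1.55e-07). P4H8 had 0 reads in root and averaged 1.31 ± 0.87 FPKM in shoot (SD, n = 4), at least 31.3-fold higher in shoot (adjusted p = 2.84e-04). It entered the test through the shoot libraries alone.

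Of the 9 glycosyltransferases that sugar the hydroxyprolines and serines, 5 stood higher in root, 3 stood higher in shoot and 1 was not called. For all genes tested, the shares were 37.6% higher in root and 32.0% higher in shoot. HPAT2, which adds the first arabinose, averaged 27.4 ± 2.27 FPKM in root and 0.303 ± 0.219 FPKM in shoot (log2 fold change 5.15, SE 0.18, adjusted p = 1.62e-09). In shoot only library 4 reached 0.5 FPKM, so HPAT2 needed its root libraries to be tested. HPAT1, of the same family, averaged 54.2 ± 3.32 FPKM in root and 80.4 ± 0.979 FPKM in shoot (−0.57, SE 0.07, adjusted p = 4.74e-05). Scaled by library totals, HPAT1 was at −0.02 (adjusted p = 0.852) and 1 of the 9 was higher in shoot. RRA1, which adds the second arabinose, averaged 1.54 ± 0.177 FPKM in root and 5.27 ± 1.46 FPKM in shoot (−1.47, SE 0.19, adjusted p = 4.3e-05).

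Among the wall peroxidases, 6 of 8 tested of 9 in the table rose in root and 2 had the higher level in shoot, with a median log2 fold change of 3.97. All genes tested had shares of 37.6% higher in root and 32.0% higher in shoot. PER40 and PER73 entered the test through the root libraries alone. PER9 and AT4G26010 also needed their root libraries to be tested, and PRX33 its shoot libraries. In each, the other organ had fewer than 4 libraries at 0.5 FPKM. PER69 had 837, 1026, 907 and 1208 FPKM in root libraries 1 to 4, against 10.1, 4.08, 7.57 and 5.54 FPKM in shoot libraries 1 to 4. The organs were far apart, with a log2 fold change of 7.14 (SE 0.23, adjusted p = 8.87e-10). PER69 acts in root hair growth in the cold, together with PER62. PRX33 averaged 0.714 ± 0.665 FPKM in root and 22.1 ± 8.61 FPKM in shoot (SD, n = 4 each), a log2 fold change of −4.31 (SE 0.44, adjusted p = 6.38e-06). Its close paralog PRX34 went the other way, at 439.2 ± 74.7 FPKM in root and 33.1 ± 5.37 FPKM in shoot (3.71, SE 0.15, adjusted p = 4.25e-09). How reads shared by the pair were counted is unknown, and their summed level was 439.9 ± 74.6 FPKM in root and 55.2 ± 9.60 FPKM in shoot. PER62 averaged 22.6 ± 3.08 FPKM in root and 76.5 ± 58.4 FPKM in shoot (SD, n = 4 each) and lay near the threshold (log2 fold change −1.33, SE 0.53, adjusted p = 0.0445). Its call was lost on leaving out any 1 of the root libraries, or shoot library 1 or 3 (adjusted p = 0.0635 to 0.124), and when scaled by library totals (log2 fold change −0.78, adjusted p = 0.209).

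**Figure D4:**
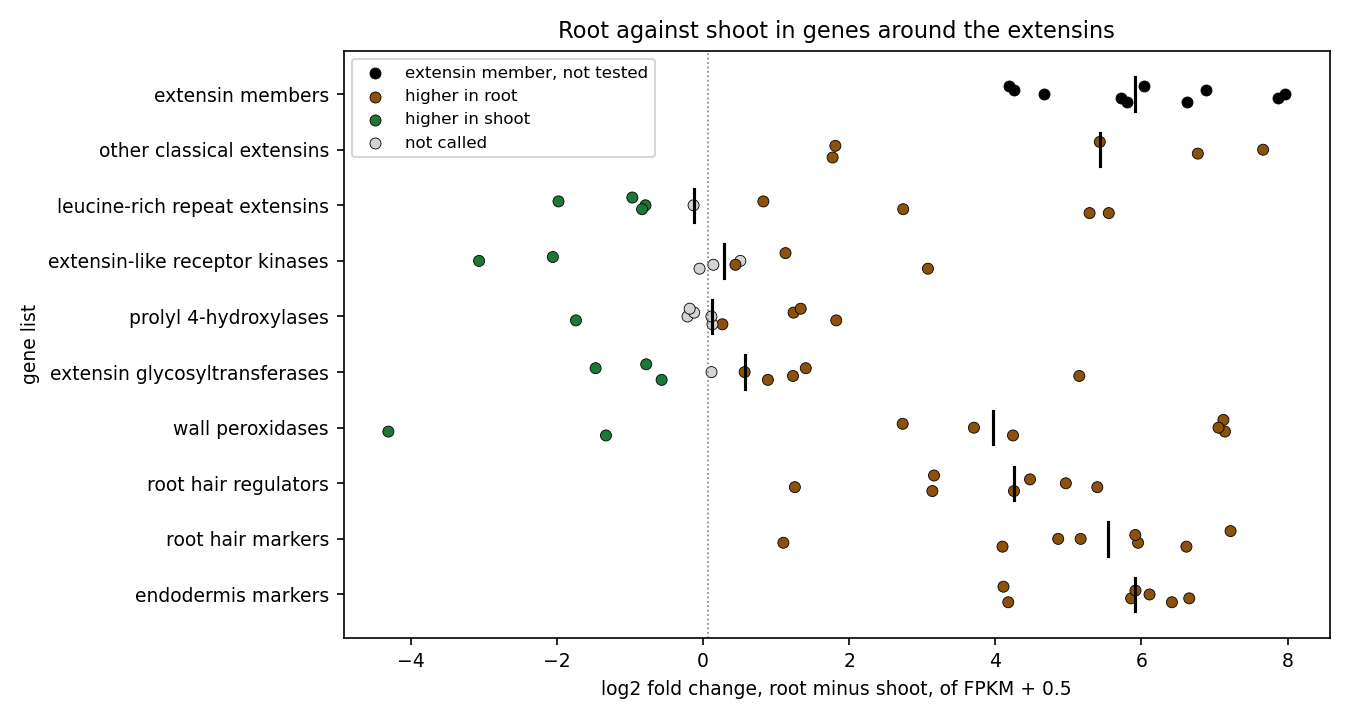
Log2 fold change, root minus shoot, of FPKM + 0.5 for each tested gene of each list (a point per gene, coloured by its call), with a black bar at each list's median and a dotted line at the median of all genes tested; the extensin members are in black and were not tested. The 5 other classical extensins lie between 1.77 and 7.66, and the leucine-rich repeat extensins and receptor kinases lie on both sides of 0.

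Among the 20314 genes tested, the profile nearest to the summed members was that of EXT3, at a root mean square difference of 0.193 on the log2 scale over the 8 libraries, since it makes up most of the sum. Next came AT3G25930, at 0.228, with 87.9 ± 14.0 FPKM in root and 0.114 ± 0.134 FPKM in shoot (SD, n = 4 each). AT3G54040, annotated as a PAR1 protein, followed at 0.229, AT3G14280 at 0.234, PER69 at 0.235, the peroxidase PER3 at 0.237 and AT5G26290, annotated as a TRAF-like protein, at 0.241. The 9 members other than EXT3 ranked 25 to 533 by this measure. For members without shoot reads, the pseudocount ties this measure to their root level. Their ranks therefore do not by themselves show an unlike pattern.

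The members hold no match to the root hair element in the 500 bases before the gene start. This degenerate motif, searched on both strands by its published form, occurs before 400 of 27419 protein-coding genes (1.46%). It was found before 6 of the 8 root hair markers (75.0%), 2 of 11 leucine-rich repeat extensins, 1 of 9 wall peroxidases, 0 of 10 members and 0 of 8 other classical extensins. Whether the published form was drawn from any of these markers was not checked. Their share is therefore no independent yardstick for the members. To show what was sought, 2 matches are printed, with the matching bases in capitals, on the gene's strand, from TAIR10.1.

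EXPA7, chr1:4276417-4276453: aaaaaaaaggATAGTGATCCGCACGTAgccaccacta
MRH6, chr2:1132037-1132073: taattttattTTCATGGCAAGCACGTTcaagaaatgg

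The match ends 62 bases before the start of EXPA7 and 57 bases before that of MRH6. No match says only that these letters are not in this window.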

How the data were processed

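Per the labels, polyadenylated RNA was selected and read as 150-base pairs without marking strand, and the build was TAIR10, with the tools HISAT2 2.0.5 and featureCounts 1.5.0-p3, per the submitters' processing notes. The growth protocol attached to the labels describes another species and was not used. The deposited values, in a table named as counts, are FPKM made by the authors with a scaled library size whose method is not given. This was read from the values, and whole reads were recovered (largest deviation 1.37e-09 reads). Libraries held 9857791 to 12460762 reads in root and 10044638 to 11662309 in shoot. At 1 kb, 3 reads were worth 0.192 to 0.375 FPKM. Bounds cover counting error only.

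limma 3.58.1 in R 4.3.3 was run on log2(FPKM + 0.5) with a trend, for the 20314 genes at 0.5 FPKM or more in at least 4 of 8 libraries. Benjamini-Hochberg adjustment ran over all of them, and an adjusted p under 0.05 was called. The script was tested on simulated data. The members and the lists were chosen with earlier results of these data known. Named are the members, the other classical extensins, the most abundant and the most changed gene of each further list, and the 6 nearest profiles. PER62, PRX34, ESB1 and the genes named for how they passed the filter were added after their values were seen. Alternatives covered pseudocount, filter, scaling, limma-voom on recovered reads, a replicate block, and each library left out.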

Additional observations from a re-analysis of the deposited data

Results flagged for a closer look

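PERK1 in shoot library 3, at 44.317 FPKM, stood apart from the other 3 shoot libraries, and so did the summed level of the extensin-like receptor kinases in the same organ, whose highest library was at 95.5523 FPKM. Of 102 groups of 4 examined, chance gives about 1 in 20 such values. No member was among them.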

How the results depend on the processing

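Scaling by library totals gave 12142 genes with root above shoot and 3997 with shoot above root, against 7630 and 6500, and moved the lists to 6 receptor kinases and 7 prolyl 4-hydroxylases higher in root, 1 glycosyltransferase and 1 wall peroxidase higher in shoot, PERK1 at 0.50 and HPAT1 at −0.02. The members' median log2 fold change was 7.90 with a pseudocount of 0.1 and 5.00 with 1, against 5.92. Without a filter, 5 receptor kinases of 12 tested were higher in root, against 3 of 8 with it. With a filter at 1 FPKM, 0 prolyl 4-hydroxylases were higher in shoot, since P4H8 was no longer tested. 1 wall peroxidase was higher in shoot without a filter, with a pseudocount of 0.1, and without root libraries 1 and 2. In those settings PER62 lost its call by limma (adjusted p = 0.0617, 0.0524 and 0.158, in that order). The cause of the remaining changes was not tested. Leaving out each library in turn gave 7129 to 7554 genes with root above shoot and 6084 to 6355 with shoot above root, 1 to 2 wall peroxidases and 1 to 2 prolyl 4-hydroxylases higher in shoot, and 6.80 to 7.24 for the log2 difference of the members' sum. Whether the replicate numbers pair the samples is not known. Correlations of the deviations were 0.0152 to 0.0710 between same-numbered root and shoot libraries, and −0.0617 to 0.0263 between differently numbered ones. A replicate block gave 7593 genes with root above shoot and 6511 with shoot above root. Depth limits the shoot values of the members, 7 of which had 0 reads. Of 404 counts, sums and medians under alternatives, 384 stayed within 1.5 times the count or within the spread between replicates. Of 612 values of single genes, 572 kept their direction and call or stayed within that spread, 28 moved beyond it, 11 lost the call and 1 (PERK1) turned its direction.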

Other observations

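AT1G05240, a wall peroxidase, was not tested because fewer than 4 libraries reached 0.5 FPKM. It had 0.929, 0.272, 1.31 and 17.5 FPKM in root libraries 1 to 4, against 3 reads over the 4 shoot libraries. Root library 4 alone held most of its reads. It was named after its values were seen.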
